A study of Mus musculus with 1666 samples.

Results

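The whisker follicle epithelium of the mouse embryo was compared between embryonic day E13.5 and E14.0, in single cells profiled by RamDA-seq, a full-length method that reads total RNA, including RNA without a poly(A) tail. The cells were selected on 3 transcripts. A cell was taken as epithelial when Krt5, the keratin of basal epidermis, was at 10 TPM or more, Trp63, the master regulator of stratified epithelium, was at 10 TPM or more, and Col3a1, a fibrillar collagen of mesenchyme, was under 50 TPM (transcript abundance scaled for gene length and for the total of the cell). This rule found 303 cells among the 1614 cells of the series, 159 at E13.5 and 144 at E14.0. They came from 2 library plates a stage, with 79 and 80 cells on the E13.5 plates and 71 and 73 cells on the E14.0 plates.

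Both groups were cells from whisker follicles of mice that carry nuclear Kikume Green-Red, a fluorescent protein that light converts from green to red. Whole follicles of the wanted stage were converted under the microscope, and red cells with the basal integrin ITGA6 and without the endothelial protein CD31 were sorted into wells. Strain, sex, the promoter of the transgene and the number of embryos are not given in the sources used here. The labels name 189 cells at E13.5 and 183 at E14.0, of which 8 and 6 were marked as low quality and were not analysed here. Because no embryo or litter is named, each stage is 1 sample and no p-value is given anywhere. Each plate holds cells of 1 stage, and the numbers in the plate names differ between the stages. Stage therefore cannot be told apart from plate or from any batch that the plates of a stage shared. A gene was called by size only. It was called when its mean over the stages was at least 5 TPM, its log2 fold of E14.0 over E13.5, on the scale of TPM plus 1, was at least 1 in either direction, and the plate means of the stages did not overlap. Plates are not known to hold separate embryos, so their spread may be technical.

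At this time the whisker follicle is an epithelial peg that grows down into the mesenchyme under Wnt, ectodysplasin, FGF and hedgehog signals. Cells on its outside later form the outer root sheath and carry the transcription factors of hair follicle stem cells, such as Sox9, Nfatc1, Lhx2, Tbx1 and Vdr, while its lower tip forms the matrix that makes the hair shaft. A growing, avascular epithelium can meet low oxygen. Under low oxygen the HIF transcription factors escape prolyl hydroxylation, bind the DNA core ACGTG or GCGTG, and switch on genes of glucose uptake, glycolysis and vessel growth.

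The rule kept 87.8% of the 181 cells at E13.5 (exact Clopper-Pearson 95% interval 82.2 to 92.2%) and 81.4% of the 177 cells at E14.0 (74.8 to 86.8%), and these intervals, like all below, cover counting error only. The closest cells inside the limits had Trp63 at 11.6 TPM at E13.5 and 13.6 TPM at E14.0. Col3a1 reached 40.04 TPM inside the rule at E13.5, and the 1 cell that failed by Col3a1 alone had 144 TPM. Median genes at 1 TPM or more per cell were 17076 to 17547 on the 4 plates, and protein-coding genes took 38.5 to 39.4% of TPM, so these measures were alike between stages. Xist was at 1 TPM or more in 6.29 and 5.56% of the cells.

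The label of these cells rests on Krt5, Trp63 and Dlx3, and the rule itself used the first pair. Krt14, the partner keratin of Krt5, was at 577 and 623 TPM on the E13.5 plates and at 624 and 869 TPM on the E14.0 plates. Dlx3, a homeobox gene of differentiating epidermis and hair matrix, was nearly absent at E13.5. Only 7 of 159 cells (4.4%, 1.79 to 8.86%) had it at 10 TPM or more there, against 48 of 144 (33.3%, 25.7 to 41.7%) at E14.0. Dlx3 is therefore not a mark that these cells share at E13.5. Markers of other cell types were low. The 8 fibroblast markers summed to 30.7 to 40.6 TPM at E13.5 and 41.3 to 46.1 TPM at E14.0, and 1 and 0 cells had 3 or more of them at 10 TPM. At least 3 of the 6 erythroid markers were at 10 TPM or more in 12 and 10 cells.

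Most genes were at the same level in both stages. Of the 12980 genes that reached the floor of 5 TPM, 193 were called higher at E14.0 (1.49%) and 44 lower (0.339%), with a median log2 fold of 0.03 over all. Among the 9302 protein-coding genes, 146 were called higher (1.57%) and 23 lower (0.247%). Plates of the same stage differed 2-fold for 69 and 79 genes (0.532 and 0.609%), and plates of different stages for 295 to 383 genes (2.27 to 2.95%). The count of calls depends on the floor. It was 394 higher and 117 lower at a minimum of 1 TPM, and 60 and 11 at 20 TPM.

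**Figure D1:**
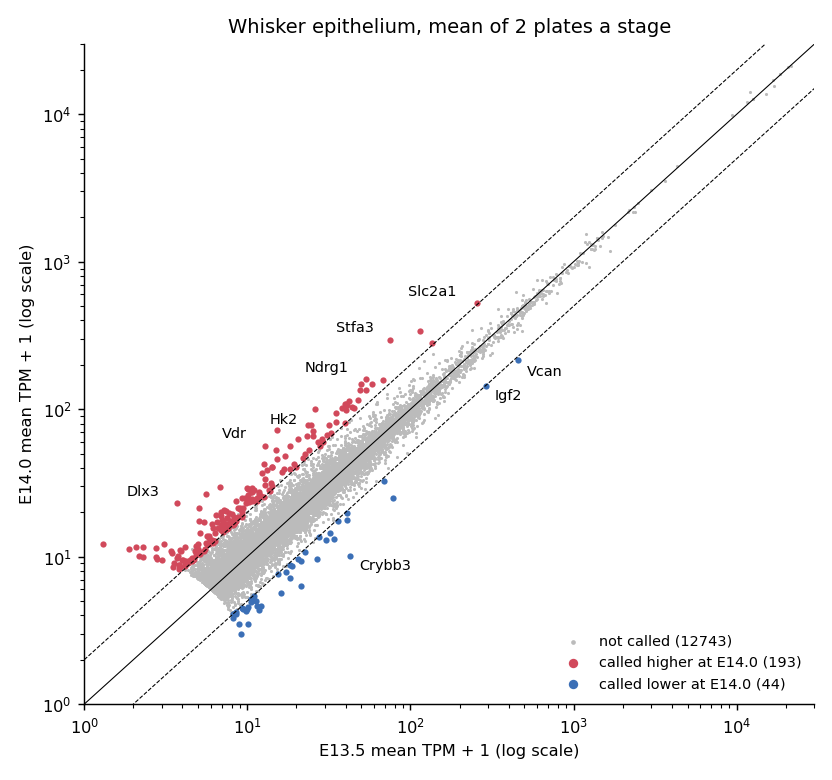
Mean TPM plus 1 of each of 12980 genes in epithelial cells at E13.5 (x axis) and E14.0 (y axis), both on log scales, with dashed lines at 2-fold. The 193 red points (called higher) outnumber the 44 blue points (called lower), and most genes lie on the solid line of equal level.

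The folds chose these genes, so their levels were also read in epithelial cells of other stages, which the comparison had not used. E13.0 and E15.0 were on separate plates as well, so stage and plate cannot be told apart there. Plates counted equally, with 14 to 23 epithelial cells on the E13.0 plates and 10 to 58 on the E15.0 plates. At E15.0 (178 cells) against E13.0 (53 cells), 157 of the 193 genes called higher were above their E13.0 level (81.3%), against 47.7% of all measured genes. At 2-fold the counts were 93 of 193 (48.2%) against 4.46% of all. Of the 44 genes called lower, 28 were below their E13.0 level (63.6%), against 52.3% of all, and 8 were so by 2-fold (18.2%), against 2.23% of all. Most genes higher at E14.0 were thus above their E13.0 level a day later, and a smaller share of the lower ones was below it.

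Genes of low oxygen and glycolysis had several calls, all of them higher at E14.0. Of 18 genes listed, 16 reached 5 TPM and 8 of the 16 were called higher, none lower, with a median log2 fold of 0.88. Over all measured genes 1.49% were called higher. All 16 had both E14.0 plates above both E13.5 plates, a pattern that 33.7% of all measured genes showed. With the mean of log2 values over cells 3 of the 16 were called, where 83 of all 9822 measured genes were called higher. The members that were called sense or answer low oxygen, or take up and trap glucose.

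The proximal promoters of these genes are printed first, because the HIF core is the sequence that the group is known for. They are the 250 bases before the RefSeq transcript start (GRCm38.p6), on the strand of the gene, with each match to ACGTG or GCGTG on either strand in capitals, so that CACGT and CACGC are matches on the other strand and CACGTG holds one on each. Egln3 and Hk2 are shown as called oxygen-sensing and glycolytic members, Bnip3 as the called member with matches close together, and P4ha2 as a collagen hydroxylase from outside the list with one of the largest folds. Egln3 is at chr12:54203875-54204124 (minus strand), Bnip3 at chr7:138909507-138909756 (minus), Hk2 at chr6:82774455-82774704 (minus) and P4ha2 at chr11:54100674-54100923 (plus).
Egln3: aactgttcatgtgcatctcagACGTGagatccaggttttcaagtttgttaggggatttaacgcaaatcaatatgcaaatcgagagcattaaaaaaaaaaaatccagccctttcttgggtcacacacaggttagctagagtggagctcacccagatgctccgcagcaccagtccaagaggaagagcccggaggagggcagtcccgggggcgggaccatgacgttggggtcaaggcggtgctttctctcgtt
Bnip3: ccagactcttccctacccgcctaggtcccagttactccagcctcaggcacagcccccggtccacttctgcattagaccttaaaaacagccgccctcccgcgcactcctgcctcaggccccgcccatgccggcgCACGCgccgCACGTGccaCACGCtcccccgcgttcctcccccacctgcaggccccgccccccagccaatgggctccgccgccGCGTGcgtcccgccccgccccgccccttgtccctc
Hk2: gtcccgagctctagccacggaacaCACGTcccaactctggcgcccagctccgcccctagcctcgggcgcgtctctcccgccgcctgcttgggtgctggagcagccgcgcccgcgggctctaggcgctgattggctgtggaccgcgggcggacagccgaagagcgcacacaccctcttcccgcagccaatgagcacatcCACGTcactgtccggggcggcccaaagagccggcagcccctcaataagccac
P4ha2: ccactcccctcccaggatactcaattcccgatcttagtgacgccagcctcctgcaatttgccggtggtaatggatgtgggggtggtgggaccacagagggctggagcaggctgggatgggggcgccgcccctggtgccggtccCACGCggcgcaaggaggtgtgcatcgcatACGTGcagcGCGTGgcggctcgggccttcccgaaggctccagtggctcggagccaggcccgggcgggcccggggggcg
The number of matches was 1 in Egln3, 5 in Bnip3, 2 in Hk2 and 3 in P4ha2. Of the measured list members, 15 have an entry in the promoter table, and all 15 hold at least 1 match, as do all 8 that were called. A match in any promoter that the table gives for a gene was enough. The first of the Vegfa and Aldoa promoters and the second of Pdk1 hold 0 matches. The core is short and common. It was found in 38.6% of all 32851 promoters of the same length and in a promoter of 64.1% of the 7695 measured genes with an entry. A match is a description of the letters and not a bound site.

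Egln3, a prolyl hydroxylase that marks HIF for destruction and is itself induced by HIF, was at 4.49 and 3.68 TPM on the E13.5 plates and at 17.4 and 15.5 TPM on the E14.0 plates (log2 fold 1.78). It was at 10 TPM or more in 11.3% of cells at E13.5 and 39.6% at E14.0. Ankrd37, an ankyrin-repeat gene known as a HIF target, was at 16.3 and 10.2 TPM, then at 37.8 and 41.9 TPM (1.52). The gene model of Ankrd37 overlaps Ufsp2 on the other strand (11.6 TPM at E14.0), and whether the counting used strand is not given in the sources used here. Both genes were low at E13.0, at 1.46 TPM for Egln3 and 9.32 TPM for Ankrd37.

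Glucose handling came next. Slc2a1, the main glucose transporter of epidermis, was at 258 and 250 TPM at E13.5 and at 544 and 504 TPM at E14.0 (log2 fold 1.04). The Slc2a1 model overlaps Mir1957a on the same strand (134 TPM at E14.0). It also overlaps Gm12867 and Gm12868 on the other strand (17.6 and 13.4 TPM). Hk2, the hexokinase that traps glucose, was at 23.8 and 24.6 TPM, then at 76.6 and 64 TPM (1.5). Pfkp, a phosphofructokinase, was at 16.3 and 18.2 TPM, then at 38.9 and 37.9 TPM (1.11), and its model overlaps Pitrm1 on the other strand (58.5 TPM). These enzymes control entry into glycolysis. The enzymes further down the pathway differed less and were not called, with log2 folds of 0.36 for Pgk1, 0.32 for Ldha, 0.26 for Aldoa and 0.26 for Eno1.

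Vegfa, the growth factor that draws vessels, was at 131 and 138 TPM at E13.5 and at 304 and 255 TPM at E14.0 (log2 fold 1.05). Bnip3, which directs mitochondria to autophagy, was at 36.7 and 41.1 TPM, then at 115 and 98.7 TPM (1.44). The Bnip3 model overlaps Gm45507 on the other strand (12.8 TPM at E14.0). Ero1l, an oxidase of disulfide formation in the endoplasmic reticulum, was at 8.94 and 9.49 TPM, then at 21.9 and 23.3 TPM (1.21). Hif1a, the oxygen-regulated subunit itself, which is controlled mainly at the protein, was at 57.1 and 59.3 TPM and at 66.1 and 62.8 TPM, a log2 fold of 0.15. Hif1a was not called. The other members not called ran from 0.26 for Aldoa to 0.73 for Ndufa4l2. HIF activity was not tested.

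**Figure D2:**
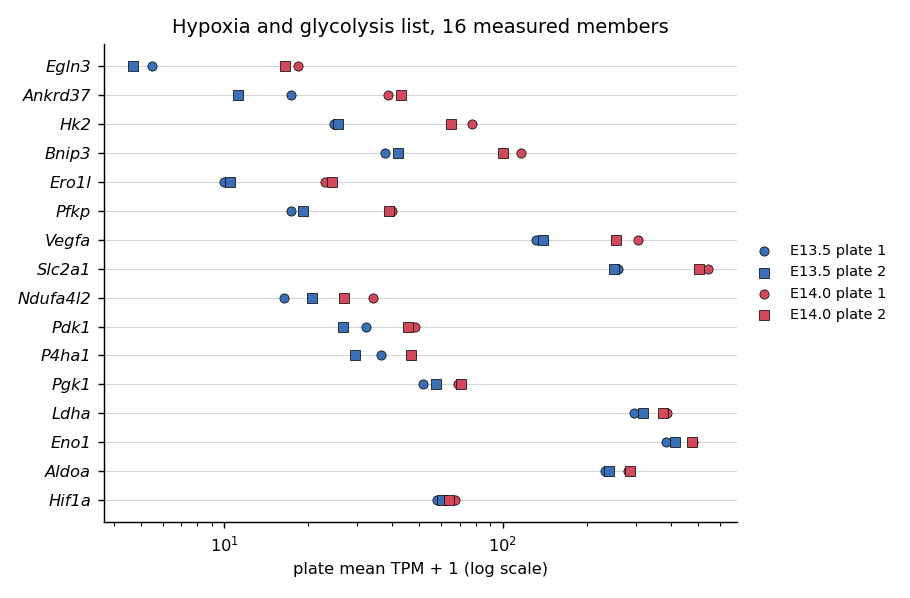
Plate mean TPM plus 1 (log scale) of the 16 measured members of the hypoxia and glycolysis list, ordered by fold, with E13.5 plates in blue and E14.0 plates in red. Both red points lie to the right of both blue points in all 16 rows, with the widest gap for Egln3 (log2 fold 1.78) and the narrowest for Hif1a (0.15).

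The genes named by the size of their fold included the following. Pfkfb3, whose product activates phosphofructokinase, was at 25.4 and 19.7 TPM at E13.5 and at 75.7 and 77.6 TPM at E14.0 (log2 fold 1.72), and at 10 TPM or more in 39 and 75.7% of cells. Slc16a3, an exporter of lactate, was at 18.1 and 16.5 TPM, then at 60.4 and 50.9 TPM (1.63). P4ha2, which hydroxylates collagen prolines, was at 22.2 and 28 TPM, then at 112 and 85.6 TPM (1.93). Ndrg1, a stress gene induced by low oxygen, was at 61.2 and 44.3 TPM, then at 179 and 138 TPM (1.57). An antisense model that overlaps Ndrg1, Gm17035, was itself at 64.3 TPM at E14.0, so part of these reads may not be assignable.

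The higher level was not spread evenly over the cells. A hypoxia score, the mean of log2(TPM + 1) over the 16 genes in a cell, had a median of 4.89 at E13.5 and 5.45 at E14.0. Its SD over cells went from 0.83 to 1.21, its lower quartile from 4.32 to 4.66 and its upper quartile from 5.54 to 6.70. The highest E13.5 cell scored 6.76, and 33 of the 144 E14.0 cells (22.9%) scored above it, 19 of 71 on plate 1 and 14 of 73 on plate 2. High cells were thus present on both E14.0 plates.

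All 33 of these cells had Lhx2, a transcription factor of the hair bud and its stem cells, at 10 TPM or more, as did 99 of the 144 E14.0 cells in all. In cells with Lhx2 at 10 TPM or more, the score was 5.31 ± 0.73 (SD over 94 cells) at E13.5 and 6.10 ± 1.09 (99 cells) at E14.0. In cells with less Lhx2 it was 4.38 ± 0.65 (65 cells) and 4.62 ± 0.73 (45 cells). The difference between stages was larger in the cells with Lhx2, but cells are not replicates and this was not tested. Cells with Krt1, a keratin of differentiating layers, at 10 TPM or more had lower scores in both stages, at 4.42 ± 0.79 (44 cells) and 4.83 ± 0.95 (27 cells). Cells with Nfatc1 at 10 TPM or more scored 5.34 ± 0.75 (74 cells) and 6.23 ± 1.05 (78 cells).

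**Figure D3:**
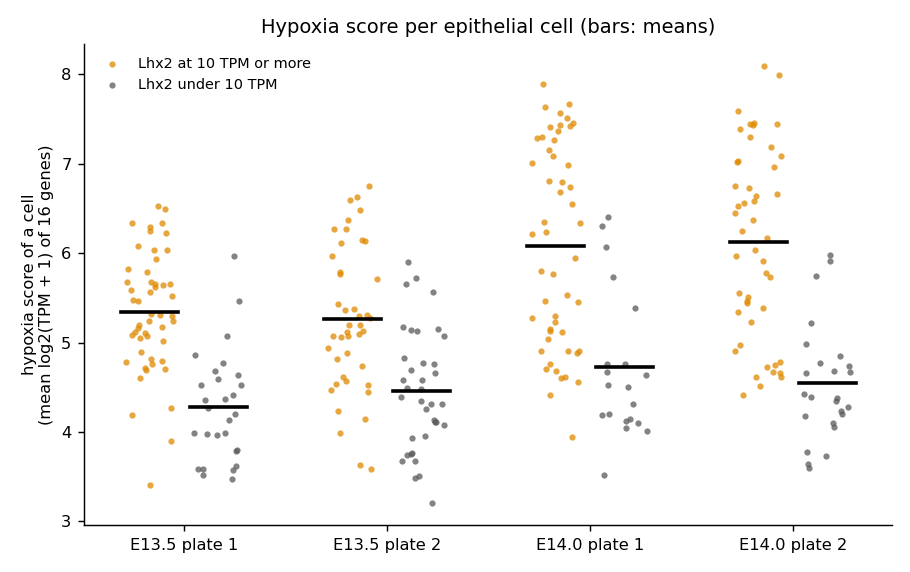
Hypoxia score of each epithelial cell (mean log2(TPM + 1) of 16 genes) by plate, with cells at 10 TPM or more of Lhx2 in orange, the others in grey, and means as black bars. The 33 cells above the highest E13.5 cell (6.76) are all orange and lie on both E14.0 plates.

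The cells of the same plates that the rule left out did not show this difference as a group. These were 22 cells at E13.5 and 33 at E14.0, of which 7 and 21 had Col3a1 at 50 TPM or more. In them the 16 genes had a median log2 fold of 0.05, and 1 of the 16 was 2-fold higher at E14.0, where 5.82% of all measured genes were. Of the 16, 9 had folds above 0 there. Slc2a1 was at -1.08, while Vegfa was at 0.91, Bnip3 at 0.94, P4ha1 at 0.83 and Ndufa4l2 at 1.59. The mix of cell types outside the rule differed between the stages, and its part in these values was not tested.

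Several factors and receptors of hair follicle stem cells were called higher. Of 18 genes listed, 15 were measured, 5 were called higher and none lower, with a median log2 fold of 0.57, against 1.49% of all genes called higher. Without the cells that had Krt1 or Krt10 at 10 TPM or more, 2 were called. In the cells outside the rule 7 of the 15 were 2-fold higher, against 5.82% of all genes, with a median of 0.69. There Vdr was at 1.07, Lgr6 at 3.48, Nfix at 2.66 and Nfatc1 at -1.26. Vdr, which encodes the nuclear receptor for vitamin D and without which hair does not cycle, had the largest fold of the list. It was at 8.41 and 15.3 TPM at E13.5 and at 36.9 and 74.5 TPM at E14.0 (log2 fold 2.14), and at 10 TPM or more in 21.4% (15.3 to 28.6%) and 47.9% (39.5 to 56.4%) of cells. The plates of a stage were about 2-fold apart for this gene, and the stages did not overlap, which the rule for a call required.

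Nfatc1, the calcineurin-dependent factor that keeps bulge stem cells quiet, was at 61.4 and 53.6 TPM at E13.5 and at 159 and 137 TPM at E14.0 (log2 fold 1.35). The share of cells with it at 10 TPM or more was 46.5% (38.6 to 54.6%) and 54.2% (45.7 to 62.5%), intervals that overlap, so the mean differed more than the share. Tbx1, a T-box factor of bulge self-renewal, was at 12.8 and 8.87 TPM, then at 26 and 25.2 TPM (1.17). Lgr6, a receptor for R-spondins that marks stem cells of the upper follicle, was at 28.9 and 27.1 TPM, then at 63.2 and 55 TPM (1.05). Nfix, a nuclear factor I protein, was at 11.7 TPM on both E13.5 plates, then at 23.5 and 25.4 TPM (1.002), at the limit for a call.

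Other members of the list were not called. Sox9, which early stem cells of the follicle require, was at 82.5 and 96.8 TPM at E13.5 and at 56.4 and 56.1 TPM at E14.0, a log2 fold of -0.66 that was not called. It was at 10 TPM or more in 89.9% of cells at E13.5 (84.2 to 94.1%) and 72.9% at E14.0 (64.9 to 79.98%). Lhx2 was at 126 and 98.1 TPM, then at 193 and 187 TPM (0.75), and Lgr5 at 42.7 and 34.2 TPM, then at 62.4 and 67.6 TPM (0.74). Runx1 and Nfib were level, with log2 folds of 0.12 and -0.11, and Krt15, a keratin of basal and bulge cells, was at -0.38. Foxc1, Fgf18 and Cd34 were below 5 TPM and not measured.

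Factors of the future hair matrix were called beside them. Of 15 matrix and hair shaft genes only 4 reached 5 TPM, and 3 of the 4 were called higher, against 1.49% of all genes. Dlx3 had the largest of the folds by which genes were named, with 3.71 and 1.70 TPM at E13.5 and 23.3 and 21 TPM at E14.0 (log2 fold 2.64). Lef1, the nuclear partner of beta-catenin, was at 41.3 and 20.3 TPM, then at 79.9 and 73.8 TPM (1.29). Without E13.5 plate 2 its log2 fold was 0.88, below the limit. Hoxc13, a homeobox regulator of hair keratins, was at 9.29 and 7.22 TPM, then at 18.6 and 16.6 TPM (1.01). Krt28, an inner root sheath keratin, was called too, but only 6.25% of E14.0 cells had it at 10 TPM or more.

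Several signals and receptors were called, where 1.49% of all measured genes were called higher. Both E14.0 plates were above both E13.5 plates in 6 of 8 Wnt ligands, 13 of 17 Wnt receptors, targets and inhibitors, 8 of 10 hedgehog genes and 12 of 17 BMP and TGF-beta genes. The counts were 7 of 17 for FGF and EGF genes, 4 of 9 for ectodysplasin genes and 5 of 9 for Notch genes. The share over all genes was 33.7%. Among 8 measured Wnt ligands, Wnt5a, a mostly non-canonical ligand, was at 11.3 and 6.65 TPM at E13.5 and at 26.2 and 29.99 TPM at E14.0 (log2 fold 1.55). Wnt16, another ligand, was at 4.63 and 3.33 TPM, then at 10.6 and 11.9 TPM (1.30). Of 17 measured Wnt receptors, targets and inhibitors only Lgr6 was called, and Axin2, a general readout of the pathway, had a log2 fold of 0.31. In the FGF and EGF list 2 of 17 were called. Fgfr3 was at 22 and 29.9 TPM, then at 59 and 58.2 TPM (1.14), and Tgfa, an EGF receptor ligand, at 3.62 and 4.61 TPM, then at 15.1 and 11.7 TPM (1.49). Tnfrsf19, a TNF receptor family gene, was the 1 call among 9 measured genes of ectodysplasin signalling (1.09).

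Hedgehog, BMP and Notch lists had 0 calls among 10, 17 and 9 measured genes. All 10 hedgehog genes had folds above 0, with a median of 0.22, and the targets Gli1 and Ptch1 were at 0.40 and 0.61. Shh itself, the ligand made at the follicle tip, averaged under 5 TPM and was at 10 TPM or more in 5 of 159 cells (3.14%, 1.03 to 7.19%) and 11 of 144 (7.64%, 3.87 to 13.3%). In the placode list 2 of 11 measured genes were called, Lef1 and Sox21, against 1.49% of all genes called higher. Wnt10b was at 0.79.

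Most of the histone genes that are expressed during DNA replication were called higher. Of 13 listed, 12 were measured, 9 were called higher, and all 12 had both E14.0 plates above both E13.5 plates, with a median log2 fold of 1.18. Over all genes these shares were 1.49% called higher and 33.7% with both plates above. Without the Krt1 or Krt10 cells 6 were called, and without E14.0 plate 1 it was 5. Hist1h1e, a linker histone, was at 19 and 20.1 TPM at E13.5 and at 69 and 54.7 TPM at E14.0 (1.61), and at 10 TPM or more in 35.2 and 82.6% of cells. Hist1h1d was at 23.9 and 23.1 TPM, then at 93.7 and 60.6 TPM (1.67). Core histone genes have near-identical copies, so reads may be split among them and single symbols are uncertain. These messages largely lack a poly(A) tail, which RamDA-seq can still read.

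Other cell cycle genes differed less. Of 17 measured S phase genes 0 were called, with a median log2 fold of 0.29, and Pcna, the clamp of DNA polymerase, was at 0.06. Of 18 genes of G2 and mitosis 1 was called, Aurkb, with 8.39 and 9.80 TPM at E13.5 and 29.3 and 20.9 TPM at E14.0 (1.37). The 18 had a median of 0.63 and all were above 0. Over all genes 1.49% were called higher. Mki67, a marker of cycling cells, was at 10 TPM or more in 24.5% of cells at E13.5 (18.1 to 32%) and 35.4% at E14.0 (27.6 to 43.8%), intervals that overlap. Cdkn1b, an inhibitor of cyclin-dependent kinases, was called higher as well, at 10.9 and 9.06 TPM, then at 23.9 and 22.8 TPM (1.15). In the cells outside the rule the histone genes had a median log2 fold of 2.43, against 1.18 inside it. There 11 of 12 were 2-fold higher, where 5.82% of all measured genes were.

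The remaining genes with the largest folds have varied roles. Mt2, a metallothionein that binds zinc and copper, was at 14 and 14.5 TPM at E13.5 and at 57.6 and 84.7 TPM at E14.0 (log2 fold 2.24). Tns4, a tensin of focal adhesions, was at 6.13 and 5.53 TPM, then at 27.3 and 29.8 TPM (2.11), and at 10 TPM or more in 16.4 and 62.5% of cells. Adamts20, a secreted protease that cleaves versican, was at 3.49 and 4.65 TPM, then at 21.1 and 19.8 TPM (2.08). Tns4 was high in most cells of the later stage, and Adamts20 in a minority.

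Secreted regulators were among them. Stc2, a stanniocalcin, was at 12.9 and 14.9 TPM at E13.5 and at 51 and 52.4 TPM at E14.0 (log2 fold 1.82). Fgfbp1, which frees FGFs from the matrix, was at 11.8 and 11.6 TPM, then at 34.2 and 48.5 TPM (1.74). Stfa3, a stefin that blocks cysteine proteases, was at 57.1 and 90.5 TPM, then at 221 and 370 TPM (1.99), and it has close copies that may share its reads. Only 35.4% of E14.0 cells had Stfa3 at 10 TPM or more. Nav2, a cytoskeletal guidance protein, was at 49.7 and 47.7 TPM, then at 162 and 131 TPM (1.57), and Phyhip at 11.8 and 14.3 TPM, then at 40.6 and 38.5 TPM (1.52).

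**Figure D4:**
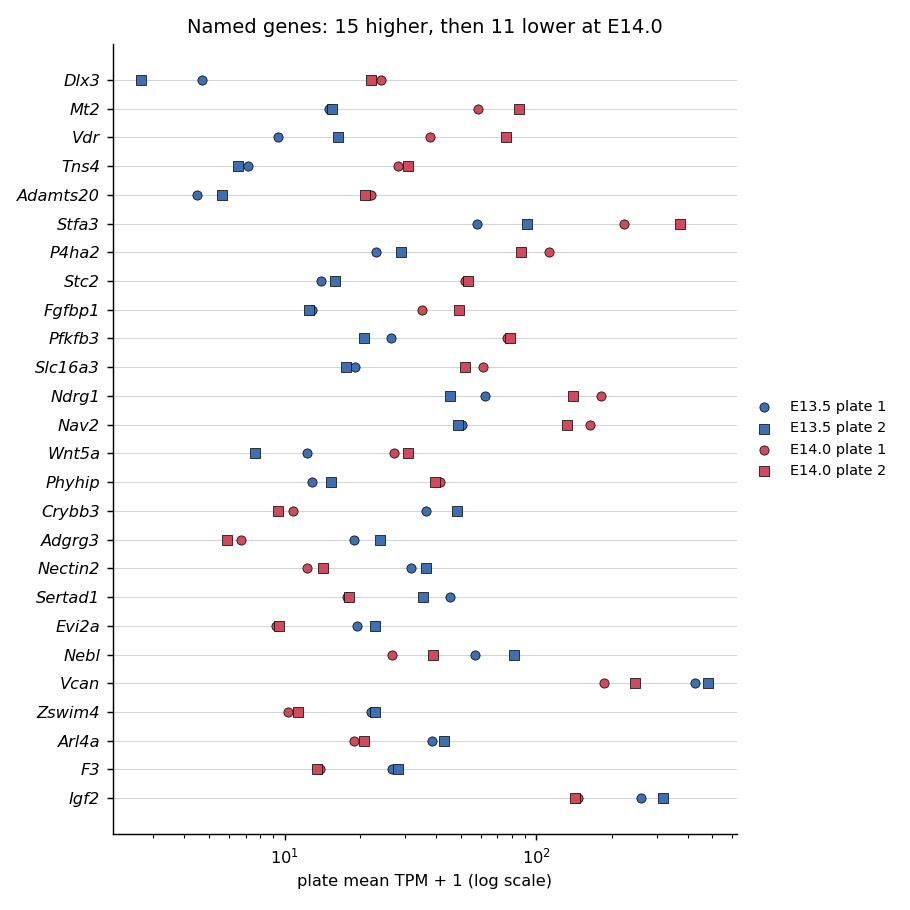
Plate mean TPM plus 1 (log scale) of 26 genes named by fold, the 15 higher genes above the 11 lower ones, with E13.5 plates in blue and E14.0 plates in red. Red and blue points do not overlap for any gene, which the rule for a call required.

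Genes lower at E14.0 were fewer, and 11 of them are given by the naming rule. Vcan, versican, a large proteoglycan of provisional matrix, was the most abundant, at 427 and 481 TPM at E13.5 and at 185 and 245 TPM at E14.0 (log2 fold -1.07). The versican protein is a substrate of Adamts20, whose transcript was called higher, and no link between the transcripts was tested. Igf2, the imprinted fetal growth factor, was at 260 and 318 TPM, then at 146 and 141 TPM (-1.01). It was the 1 call among 11 measured imprinted and fetal growth genes, where 0.339% of all genes were called lower.

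Crybb3, a beta crystallin best known from the lens, had the largest lower fold, at 35.4 and 47.5 TPM and then 9.78 and 8.44 TPM (log2 fold -2.07). It was at 10 TPM or more in 83.6% of cells at E13.5 and 34.7% at E14.0, so its lower mean was seen across cells. Adgrg3, an adhesion receptor, was at 17.9 and 23 TPM, then at 5.73 and 4.89 TPM (-1.77). Nectin2, a cell adhesion protein, was at 30.9 and 35.4 TPM, then at 11.3 and 13.2 TPM (-1.37). Nebl, an actin-binding protein, was at 55.9 and 80.7 TPM, then at 25.6 and 37.9 TPM (-1.08). The other 5 were Sertad1 (-1.19), Evi2a (-1.18), Zswim4 (-1.05), Arl4a (-1.04) and F3, tissue factor (-1.01). Evi2a lies within Nf1 on the other strand, which was at 29.7 TPM.

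Several of these calls lay near the limit of 1 and were below it when 1 plate was left out, with no change of sign. Without E14.0 plate 1 the log2 folds were 0.92 for Vegfa, 0.98 for Slc2a1, 0.95 for Lgr6, 0.94 for Hist1h1b, 0.61 for Hist1h2ab, 0.83 for Hist1h3a, 0.95 for Hist1h4d and -0.89 for Vcan. Without E13.5 plate 2 they were 0.95 for Tbx1, 0.86 for Hoxc13, 0.89 for Tnfrsf19, 0.94 for Sox21, -0.80 for Nebl and -0.85 for Igf2, and without E13.5 plate 1 the value was 0.95 for Fgfr3. The average used also matters where few cells carry a gene. With the mean of log2 values over cells, which gives less weight to the highest cells, Vdr (1.62), Dlx3 (1.68), Hk2 (1.36), Pfkp (1.28) and Ankrd37 (1.68) stayed above 1. On that scale Vegfa (0.76), Slc2a1 (0.79), Bnip3 (0.85), Ero1l (0.76), Nfatc1 (0.89), Lef1 (0.80), Mt2 (0.91), Stfa3 (0.93) and Fgfbp1 (0.90) did not reach it. Nor did Wnt16 (0.68), Fgfr3 (0.76), Tgfa (0.89), Tnfrsf19 (0.73), Sox21 (0.75), Hoxc13 (0.80), Aurkb (0.90), Cdkn1b (0.91), Krt28 (0.36) and Krt6a (0.30). Among histones, Hist1h1b (0.98), Hist1h2ab (0.74), Hist1h2ac (0.83) and Hist1h3a (0.95) were below it. S100a6 (0.45) was below it as well, while Pfkfb3 (2.08) and Tns4 (1.91) stayed above it. Of all 193 genes called higher, 46 were called again with this average. Of the lower calls, Sertad1 (-0.92), Arl4a (-0.86), Cldn6 (-0.93) and Sprr1a (-0.08) fell short of -1. F3 was at -0.40 on that scale, at -0.42 without the cells that had Krt1 or Krt10 and at -0.56 with the stricter cell rule.

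Lists of the basal and differentiating layers had few calls, where 1.49% of all genes were called higher. Of 19 basal epidermis genes 1 was called, Dlx3, and the median log2 fold was 0.03. The 19 include Krt5 and Trp63, which the cell rule used, and without them the median was 0.01. Of 15 measured suprabasal genes 0 were called, 10 had folds above 0, the median was 0.41 and the highest was 1.15. Krt1 was at 74.3 and 159 TPM on the E13.5 plates and at 100 and 226 TPM on the E14.0 plates, and the stages overlapped. It was at 10 TPM or more in 27.7% of cells at E13.5 and 18.8% at E14.0. Krt79, a keratin of the upper follicle canal, was at 10 TPM or more in 12.6 and 14.6% of cells. Krt17, an outer root sheath keratin, had a log2 fold of -0.01 with 67.3 and 82.6% of cells at 10 TPM or more. Krt6a was called higher (1.26), but without the cells that had Krt1 or Krt10 at 10 TPM or more its log2 fold was -0.83. Sprr1a, a precursor of the cornified envelope, was called lower at -1.15 and was at -0.16 without those cells. Cldn6, an embryonic claudin, was called lower (-1.12) and was at -0.66 without those cells.

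Across all 7 stages, the step at E14.0 took different forms. Vdr and Nfatc1 were low at E12.0, at 1.91 and 5.30 TPM, and reached 122 and 219 TPM at E17.0. On the scale of log2(stage mean TPM + 1), the 16 low oxygen genes averaged 5.22 and 5.15 in the E12.0 and E13.0 epithelium. They averaged 5.58 in that of E13.5 and 6.45 in that of E14.0, then 6.54 a day later and 6.12 in the last stage. Pfkfb3 had means of 10.5 TPM (E13.0), 76.7 TPM (E14.0) and 29.9 TPM (E17.0), so it and the group had their highest values at E14.0 or in the stage after it. Dlx3 was at 24.1 TPM at E11.5, 3.26 at E13.0 and 41.2 at E17.0, and its low level at E13.5 was a trough between higher levels.

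The lower genes also differed in course. Vcan was at 454 TPM at E13.5, with 105 TPM left by E15.0 and 30.02 TPM at E17.0. Nectin2 was at 52.5 TPM at E11.5, 33.1 TPM at E13.5 and 15.6 TPM at E15.0. Crybb3 was at 45.8 TPM at E13.0 and 22.2 TPM at E15.0, a level above that of its E14.0 plates. Stfa3 was at 2.16 TPM at E13.0 and 296 TPM at E14.0, and was back at 49 TPM by E17.0.

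**Figure D5:**
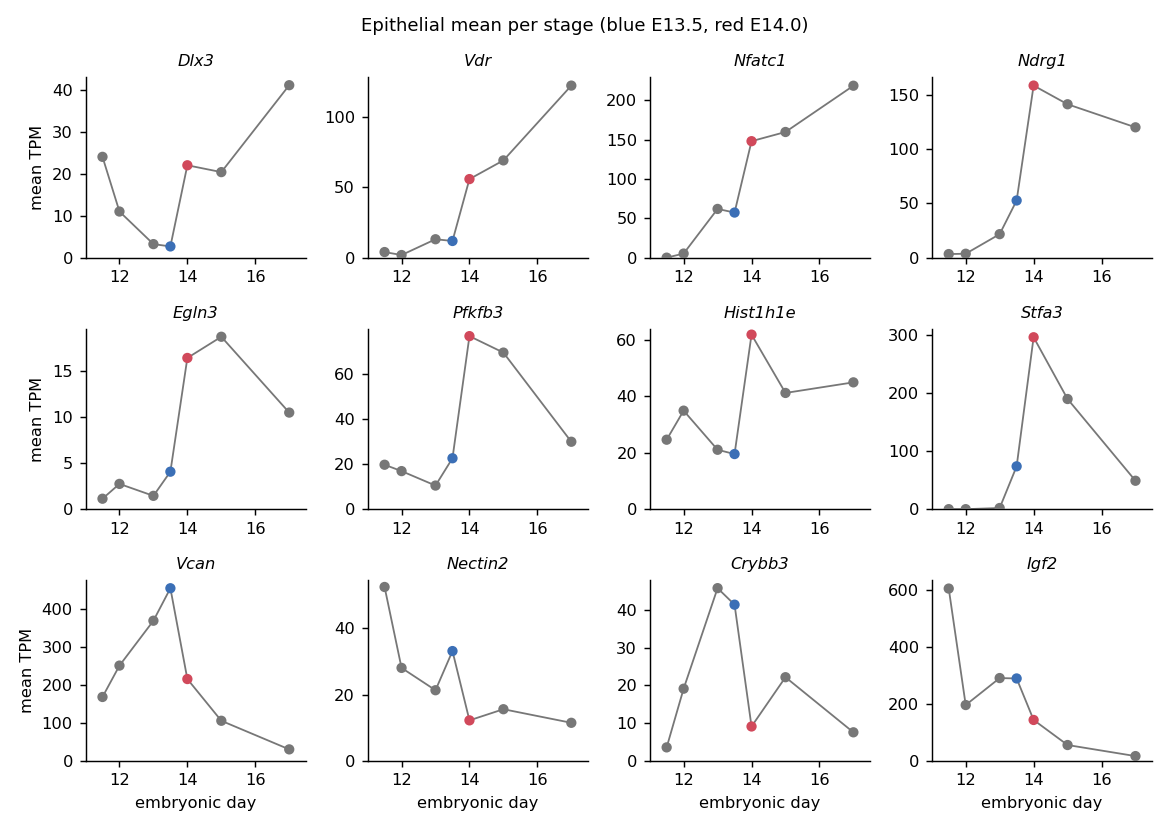
Mean TPM in epithelial cells (y axis, starting at 0) against embryonic day for 12 genes, with E13.5 in blue and E14.0 in red. Vdr and Nfatc1 go on to their highest level at E17.0, Pfkfb3 and Stfa3 are highest at E14.0, and Vcan is highest at E13.5 and lower after it.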

How the data were processed

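Sorted single cells were profiled by RamDA-seq. The deposited table holds TPM, with values made by the authors for 1 row per gene symbol, per the file headers. The submitters' processing notes name the mm10 build, Subread 1.5.0 with featureCounts, HISAT2 2.0.4, and bcl2fastq 1.0; the annotation release is not given in the sources used here. Columns total 991213 to 999516, no columns are identical, and 0 columns were unused. TPM keeps no depth, so depth per cell is unknown and cells could not be thinned. No doublet caller was run on the sorted wells.

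A plate value is the mean TPM of its epithelial cells, a stage value is the mean of its 2 plate values, and folds are log2 with a pseudocount of 1 TPM. No test was run, since a stage is 1 sample. The 49662 symbols were matched to GENCODE M21 for types and positions, and 45614 matched. The calling code was tested on simulated data, with changes larger than the limit for a call and no plate differences. That checks the code and does not measure the error of the calls made here.

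The genes named by fold are the 15 largest each way among called genes with a higher stage mean of at least 20 TPM and at least 25% of that stage's cells at 1 TPM or more. Predicted, ribosomal protein, mitochondrial, small RNA, histone and pseudogene symbols were passed over, and 54 genes were eligible higher and 12 lower, of which 1 is not reported here. Any member of the lists may also be named. The cells, lists and rules were chosen with earlier results of these data known. Alternatives of pseudocount, floor, averaging, scaling, cell rule and left-out plates were run. Calculations used pandas 2.3.3, scipy 1.17.1, numpy 2.4.6 and, for plots, matplotlib 3.10.9 under Python 3.11.15.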

Additional observations from a re-analysis of the deposited data

How the results depend on the processing

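Against 193 genes called higher and 44 lower, counts depended on the floor, the pseudocount and the averaging. The counts were 394 and 117 with a floor of 1 TPM, 60 and 11 at 20 TPM, and 423 and 126 with no floor. They were 85 and 9 at a pseudocount of 5 TPM, and 70 were lower at 0.1 TPM. The mean of log2 values over cells called 83 higher, and shared 46 with the 193. Removing mitochondrial, ribosomal RNA, 7SK/7SL and Mir6236 symbols gave 81 lower. Stricter and marker-count cell rules gave 200 and 197 higher, and cells without Krt1 and Krt10 gave 208, of which 137 were among the 193. Leaving out each plate gave up to 244 higher and 51 to 59 lower. Of the 193 and 44, 135 to 159 and 28 to 33 were called again.

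Of the 65 genes followed, 1 changed sign in any of 21 settings, Krt6a (-0.83 without cells that had Krt1 or Krt10). With the mean of log2 values, 3 low oxygen genes were called in place of 8; in the other settings 6 to 9 were. Calls ran from 5 to 11 for histones and from 2 to 5 for stem cell factors. Without 1 plate, log2 folds ran from 0.61 to 1.45 for Hist1h2ab, 0.46 to 1.77 for Krt6a, 0.88 to 1.87 for Lef1 and 0.80 to 1.60 for Nrp2. Scaling moved the median fold from 0.03 to between 0.01 and 0.03, or to 0.00 with median-of-ratios factors. Without E15.0 plate 1, which has 10 epithelial cells, 82.9% of the 193 genes were above their E13.0 level and 59.1% of the 44 below it. No paired analysis was possible because the labels' well numbers only name cells and no test was run. The causes of these differences were not tested.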

Other observations

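Some groups outside the lists also held several calls, and they were chosen after their values were seen. Of 47 measured protein-coding symbols of the histone clusters, 31 were called higher and 0 lower, and all 47 had folds above 0, from 0.34 to 1.67 on the log2 scale. Over all measured genes 1.49% were called higher and 0.339% lower. Of 77 measured ribosomal protein genes, 0 were called, with a median log2 fold of -0.09. All 3 measured metallothioneins were called higher. Mt1 was at 46.1 and 50.4 TPM on the E13.5 plates and at 125 and 145 TPM on the E14.0 plates. Mt4, the form of stratified epithelium, was at 0.429 and 0.169 TPM, then at 15.8 and 6.47 TPM, with 5.56% of E14.0 cells at 10 TPM or more.

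Between Dlk1 and Dio3 on chromosome 12, an imprinted region with a large microRNA cluster, 8 of 19 measured symbols were called higher and 1 lower, against the same 1.49% and 0.339%. Rian, a long noncoding RNA of the region, was at 52.3 and 30.3 TPM at E13.5 and at 122 and 104 TPM at E14.0 (log2 fold 1.43). Mirg, the host transcript of many of the microRNAs, was at 2.70 and 1.47 TPM, then at 11 and 11.55 TPM (1.99). Meg3, which lies upstream of both, was at 20.6 and 12.1 TPM, then at 19.6 and 17.8 TPM (0.18), and was not called. Of 681 measured microRNA symbols over all chromosomes, 16 were called higher and 7 lower. The symbols Mir411, Mir453, Mir154, Mir379 and Mir758 were called higher and Mir493 lower. In a total RNA library such symbols can hold reads of the host transcript, so they are not levels of mature microRNA.

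A connexin and a pair of prostaglandin enzymes were also called higher. Gjb2, the connexin mutated in inherited deafness, was at 38.5 and 35.4 TPM, then at 97.1 and 105 TPM. Ptgs2, the inducible cyclooxygenase, had a log2 fold of 1.37 and Ptges, a prostaglandin E synthase, of 1.5. Mitf was called higher (1.43), at 3 and 2.49 TPM and then 9.43 and 8.75 TPM, while 0 cells of either stage had 3 or more of the 6 melanocyte markers at 10 TPM.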
